A study of Mus musculus with 19 samples.

Results

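Clusterin, 2 further apolipoproteins, 3 lipid exporters and 3 lipoprotein receptors were followed in mouse hippocampus. The 9 genes were taken by their symbols, Clu, Apoe, Apod, Abca1, Abca7, Abcg1, Lrp1, Lrp8 and Vldlr, through the Ensembl gene IDs of the deposited count table. All 9 were found among the 20655 IDs of that table, and 9 of 9 were among the 18204 genes with enough counts to be tested.

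Each library was made from the left hippocampus of an animal of 4 months, after perfusion with saline, and the labels give each of the 19 libraries its own animal number. All animals were hemizygous for 5xFAD, a set of transgenes that makes mutant human amyloid precursor protein and presenilin in neurons under the Thy1 promoter and gives amyloid plaques early in life. The 5xFAD group held 5 females and 5 males. The knock-in group held 4 females and 5 males that also carried a clusterin knock-in whose sequence the labels do not describe. Its title code is CLUh2kbKIHO, and the design text names it CLU-2kb-KI. The ending HO, like HEMI for 5xFAD, was read as zygosity, here homozygous. The count analysed for clusterin is that of the mouse Clu row, and how reads of the inserted sequence were assigned is not given in the sources used here. Mice without 5xFAD were not analysed here. The comparison of the genotypes, within each sex and over both, asks how hippocampal RNA differs when the clusterin knock-in is added to 5xFAD. The labels put the genotypes in separate ranges of animal numbers and library names. A difference between the genotypes thus cannot be told apart from anything else tied to those ranges.

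In brain, cholesterol and phospholipids move between cells on small particles that astrocytes secrete. ABC transporters load lipid onto apolipoproteins, and receptors of the LDL receptor family on neurons, glia and vessel cells take the particles up. Several genes of this route, among them those of clusterin, apolipoprotein E and the transporter ABCA7, are known risk genes for Alzheimer's disease in humans.

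Depth was 17278276 to 25200966 counts per library. All 6 hippocampal marker genes were measured in every library, with a summed level of 612 to 941 in counts-per-million units (CPM). A panel of 8 nuclear noncoding RNAs (such as Malat1 and Meg3) varied widely between libraries and, in females, did not overlap between the genotypes. Its summed level was 1212 to 2419 CPM in the 4 knock-in females and 5332 to 6943 CPM in the 5 5xFAD females. In males it was 2624 to 7801 CPM with the knock-in and 1459 to 6280 CPM without it, where 5xFAD male 10 was the lowest. Of the 8 noncoding RNAs, 7 were called lower in knock-in females, where 5.56% of all genes were called in either direction, and none of the 8 was at 0 in any library. Fits with the level of this panel as a covariate are given beside Abca7 and Lrp1. Because that level did not overlap between the female genotypes, such a fit cannot tell panel and genotype apart in females. For these fits, and for correlations with any marker list, the level was the mean log2 CPM of the list, not the sum.

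Promoter sequence is shown for a lipid exporter with a known sterol response, Abca1, and for Abca7 and Lrp1, whose levels moved together across libraries and differed most between the sexes in their response (below). Of the 9 genes, 7 had a promoter entry in RefSeq (build GRCm38.p6), and Clu and Abcg1 had none. Each run holds the 250 bases before the most upstream start, 5′ to 3′ on the gene's strand, and capitals mark matches to the motifs searched. The windows lie at chr4:53159896-53160145 for Abca1 (minus strand), chr10:79996244-79996493 for Abca7 (plus strand) and chr10:127621149-127621398 for Lrp1 (minus strand).
Abca1: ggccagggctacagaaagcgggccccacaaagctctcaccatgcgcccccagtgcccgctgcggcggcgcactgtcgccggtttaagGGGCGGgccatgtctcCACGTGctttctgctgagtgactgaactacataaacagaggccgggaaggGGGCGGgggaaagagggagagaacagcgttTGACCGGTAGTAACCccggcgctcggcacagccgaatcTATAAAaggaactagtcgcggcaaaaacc
Abca7: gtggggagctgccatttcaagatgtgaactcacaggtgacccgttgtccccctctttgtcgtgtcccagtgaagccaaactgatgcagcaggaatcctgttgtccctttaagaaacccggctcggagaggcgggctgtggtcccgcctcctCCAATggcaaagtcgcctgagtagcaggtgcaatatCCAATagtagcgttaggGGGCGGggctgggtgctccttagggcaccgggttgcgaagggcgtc
Lrp1: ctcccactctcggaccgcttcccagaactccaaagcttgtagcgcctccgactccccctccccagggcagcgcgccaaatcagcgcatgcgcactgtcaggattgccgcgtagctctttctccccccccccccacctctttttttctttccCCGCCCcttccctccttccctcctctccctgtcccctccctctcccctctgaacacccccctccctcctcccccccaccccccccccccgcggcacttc

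The motifs were searched on both strands as exact letters. The direct repeat bound by liver X receptors, the sterol sensors that induce Abca1 in many tissues, was searched as GGTNA and GGTCA with 5 bases between them. Abca1 held it, on the other strand, from 67 to 53 bases before its start, and 0.177% of all 32851 promoter windows of the same length held it. Abca1 also held a CACGTG box (6.02% of all windows), a TATAAA box 29 bases before the start (12.4%) and the GGGCGG box at 2 places (32.7%). Abca7 held 1 GGGCGG box and 2 CCAAT boxes (33.8% of all windows). Lrp1 held 1 GGGCGG box, read on the other strand, 99 bases before its start. The sterol regulatory element TCACNCCAC (1.05% of all windows) was not among the letters of any of the 7 windows. No motif overlapped another in these windows, and a match is a description of the letters only.

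Between genes, levels were compared as CPM per kilobase of the longest annotated transcript, over all 19 libraries. Apoe, the main apolipoprotein of brain, stood highest at 1226 ± 308 CPM per kilobase (SD, n = 19), rank 21 of 17787 genes with a length. Clu followed at 565 ± 95.2 (rank 42), and Apod at 65.5 ± 16.0 (rank 828). Lrp1 stood at 27.2 ± 4.47 (rank 2347). The next 3 were close together, with Abcg1 at 13.0 ± 1.68, Lrp8 at 10.9 ± 1.94 and Vldlr at 10.4 ± 1.57 CPM per kilobase. Abca1 at 4.64 ± 0.964 and Abca7 at 3.44 ± 0.625 were the lowest. The secreted carriers thus stood above the receptors and exporters, and within Abcg1, Lrp8 and Vldlr and within Abca1 and Abca7 the ranges overlapped. Between libraries Apoe and Apod varied the most, with a coefficient of variation of 25.1% and 24.5%, and Clu and Lrp1 less, with 16.9% and 16.4%.

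Over both sexes, none of the 9 genes passed the test for a change with the knock-in (edgeR quasi-likelihood test, Benjamini-Hochberg adjusted over 18204 genes, threshold 0.05), where 0.022% of all genes did. The unadjusted p was under 0.05 for 1 of the 9, Apod, beside 11.9% of all genes. DESeq2, limma-voom and limma-trend called 0 of 9 as well. The median log2 change of the 9 genes was 0.08, beside -0.0013 for all genes. In females 0 of 9 passed, beside 5.56% of all genes called. There 4 of 9 had an unadjusted p under 0.05 (Lrp1, Apod, Abca7 and Abcg1), beside 22.1% of all genes. DESeq2 called 1 of 9 in females, Lrp1 as lower, beside 9.94% of all genes, and limma-voom and limma-trend called none. In males 0 of 9 passed in each of these tools, beside 0% of all genes called (edgeR). There 1 of 9 had an unadjusted p under 0.05 (Lrp1), beside 6.52% of all genes. The difference between the sexes in the response passed for 0 of 9 genes, beside 0.308% of all genes called. Its unadjusted p was under 0.05 for 3 of 9 (Lrp1, Abca7 and Abcg1), beside 17.7% of all genes. DESeq2 called 1 of 9 for this difference, again Lrp1, beside 4.21% of all genes, and limma-voom and limma-trend called none. Settings that keep all libraries called 0 to 106 of all genes over both sexes and 0 to 1810 in females. They called 0 to 19 in males and 0 to 766 for the difference. The limma shares of all genes are not given here, so a limma count of 0 of 9 is no result about these genes. The median log2 change was 0.18 in females and 0.16 in males, and the median of the differences was -0.06.

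**Figure D1:**
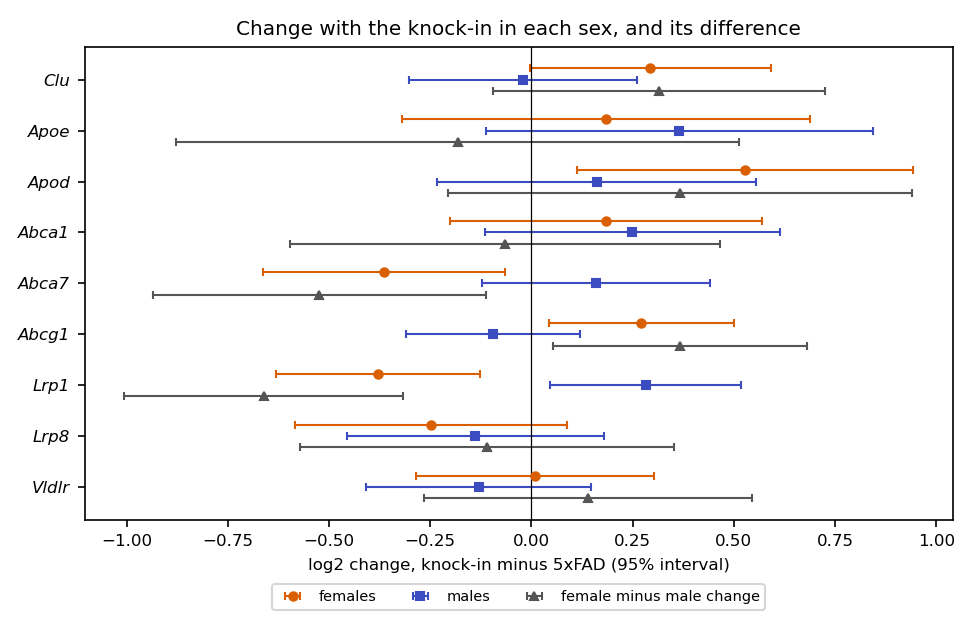
Log2 change with the knock-in for each gene in females (circles), in males (squares) and the female minus the male change (triangles), with 95% intervals from edgeR. Lrp1 is the gene whose female and male intervals lie on opposite sides of 0, at -0.63 to -0.13 and 0.05 to 0.52.

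The plot of changes by sex shows the size of these estimates. The intervals of Apod, Abca7, Abcg1 and Lrp1 in females lay to 1 side of 0 before adjustment. In males this held for Lrp1 alone. Bulk RNA cannot tell fewer cells of a type from less RNA per cell, and this applies to every level below. Where libraries are counted above or below another group, the share of all genes with such a pattern was not counted.

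Clusterin, a secreted chaperone also called apolipoprotein J and made mainly by astrocytes in brain, had its highest values in knock-in females. In 5xFAD females Clu stood at 809, 865, 1026, 1092 and 1121 CPM, and in knock-in females at 938, 1226, 1288 and 1365 CPM. In 5xFAD males it stood at 865, 894, 979, 983 and 1160 CPM, and in knock-in males at 732, 799, 1064, 1104 and 1109 CPM. Thus 3 of 4 knock-in females lay above every 5xFAD female, the fourth lay inside their range, and the male groups overlapped with 2 knock-in males below every 5xFAD male. How many of all genes show this was not counted, and 22.1% of them had an unadjusted p under 0.05 in females (edgeR). Group means were 983 ± 139 CPM in 5xFAD females (SD, n = 5), 976 ± 115 CPM in 5xFAD males (SD, n = 5), 962 ± 181 CPM in knock-in males (SD, n = 5) and 1204 ± 187 CPM in knock-in females (SD, n = 4). The 3 lower means differed by less than their SD. The log2 change of Clu was 0.29 (SE 0.14, adjusted p = 0.233, edgeR) in females, -0.02 (SE 0.14, adjusted p = 0.987, edgeR) in males and 0.13 (SE 0.10, adjusted p = 0.665, edgeR) over both sexes. The difference between the sexes was 0.31 (SE 0.20, adjusted p = 0.427, edgeR). Over the settings that keep all libraries the change of Clu ran from 0.11 to 0.42 in females and from 0.019 to 0.17 over both sexes.

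Apolipoprotein E, which carries cholesterol from astrocytes and microglia, varied widely among 5xFAD males. Apoe stood at 777, 970, 1350, 1920 and 2183 CPM in 5xFAD males and at 1503, 1824, 1867, 1996 and 2088 CPM in knock-in males. In females it stood at 1347, 1411, 1692, 1830 and 2274 CPM without the knock-in and at 1358, 1977, 2161 and 2277 CPM with it. All 4 groups overlapped, and 3 of 5 5xFAD males lay below every knock-in male. The means, 1440 ± 602 CPM in 5xFAD males, 1711 ± 372 CPM in 5xFAD females, 1856 ± 223 CPM in knock-in males and 1943 ± 410 CPM in knock-in females, each differed from the next by less than their SD. The log2 change of Apoe was 0.18 (SE 0.24, adjusted p = 0.708, edgeR) in females, 0.37 (SE 0.23, adjusted p = 0.82, edgeR) in males and 0.28 (SE 0.16, adjusted p = 0.514, edgeR) over both, with an interval of -0.06 to 0.62.

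Apolipoprotein D, a lipocalin that binds arachidonic acid and is made by glia and perivascular cells, gave the lowest p of the 9 genes over both sexes. Apod stood at 82.7, 99.2, 110, 127 and 143 CPM in 5xFAD females and at 129, 155, 174 and 189 CPM in knock-in females. It stood at 97.1, 129, 139, 141 and 143 CPM in 5xFAD males and at 87.8, 108, 156, 181 and 191 CPM in knock-in males. Of the 9 knock-in values, 6 exceeded the highest 5xFAD value of either sex, and in knock-in males the values fell on both sides of the 5xFAD male range. How many of all genes show this was not counted, and 11.9% of them had an unadjusted p under 0.05 over both sexes (edgeR). Group means in order were 112 ± 23.4 CPM in 5xFAD females, 130 ± 19 CPM in 5xFAD males, 145 ± 45.3 CPM in knock-in males and 162 ± 25.7 CPM in knock-in females, and each differed from the next by less than their SD. The log2 change of Apod was 0.33 (SE 0.14, interval 0.04 to 0.62, adjusted p = 0.372, edgeR) over both sexes. It was 0.53 (SE 0.20, adjusted p = 0.12, edgeR) in females and 0.16 (SE 0.19, adjusted p = 0.916, edgeR) in males, with a difference between the sexes of 0.37 (SE 0.27, adjusted p = 0.525, edgeR). A fit with the replicate number as a block called it in females (0.63, adjusted p = 0.0261, edgeR, beside 3.65% of all genes). Those numbers were not taken to pair animals, since libraries of equal number correlated at only -0.20 to 0.12, so that call is not further support.

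Markers of other cell types moved with Clu and Apod. The summed level of 11 astrocyte markers was 4718 to 5404 CPM in 5xFAD females and 6071 to 7065 CPM in knock-in females, and 3 of the 11 were called higher, beside 5.56% of all genes called. In males the same sum was 4896 to 5802 CPM without the knock-in and 5343 to 6408 CPM with it, with none called. The 6 endothelial markers summed to 201 to 225 CPM in 5xFAD females and 229 to 273 CPM in knock-in females, with none called. Across the 19 libraries the level of Apod followed the mean log2 CPM of the endothelial markers with a Pearson r of 0.82 (Spearman 0.83). Once group means were removed r was 0.74. For Clu the same r was 0.64 (0.66 with group means removed). With the 8 leptomeningeal fibroblast markers r was 0.55 for Apod and 0.53 for Clu (0.46 and 0.43 with group means removed). For Apod r was 0.62 with the astrocyte, 0.66 with the mural cell and 0.66 with the erythrocyte markers. With group means removed these were 0.42, 0.61 and 0.46. For Clu the same were 0.51, 0.36 and 0.57, and 0.46, 0.43 and 0.53 with group means removed. The neuronal markers gave -0.26 for Apod and -0.34 for Clu. The noncoding RNA panel gave -0.45 and -0.51 (-0.12 and -0.25 with group means removed). None of the markers of these lists was at 0 in any library, and their part in the values of Clu and Apod was not tested.

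**Figure D2:**
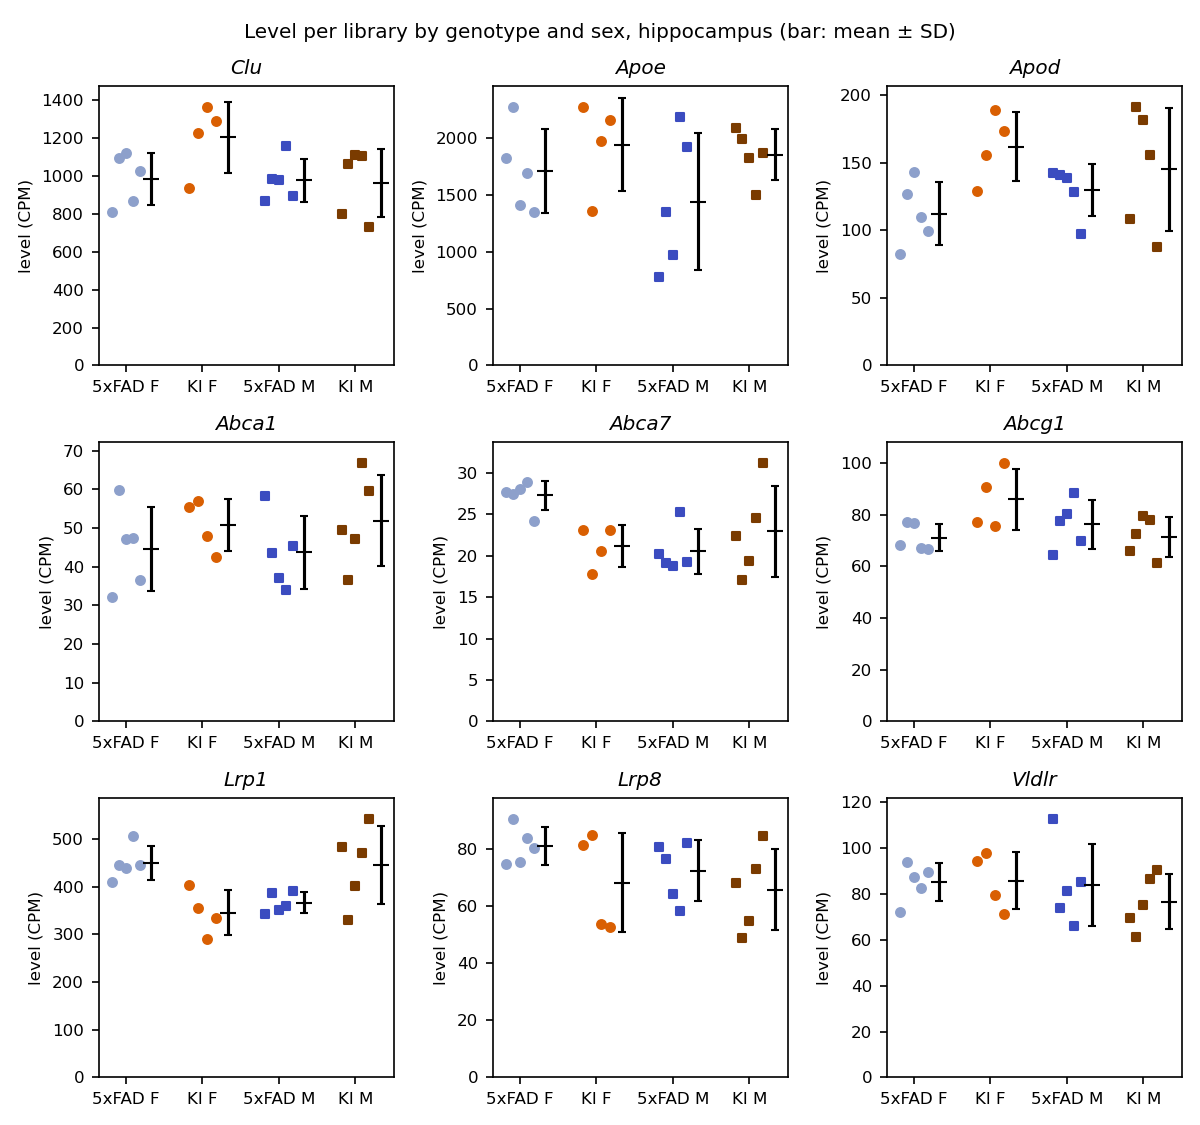
Level of each of the 9 genes in every library, in CPM on a linear axis from 0, by genotype and sex (KI, knock-in, F, female, M, male), with bars for the mean ± SD of each group. Knock-in females sit below every 5xFAD female for Lrp1 and Abca7, and 3 of 4 sit above every 5xFAD female for Clu and Apod. The share of all genes with such patterns was not counted.

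In the plot of levels by group the 3 exporters differed from each other in females, with Abca7 lower, Abcg1 higher in 2 of 4 animals and Abca1 overlapping. ABCA7, a phospholipid exporter linked to uptake of amyloid by phagocytes, had lower levels in females with the knock-in. Abca7 stood at 24.2, 27.5, 27.7, 28.0 and 28.9 CPM in 5xFAD females and at 17.8, 20.6, 23.1 and 23.1 CPM in knock-in females. In 5xFAD males it stood at 18.8, 19.1, 19.2, 20.3 and 25.3 CPM, and in knock-in males at 17.1, 19.4, 22.3, 24.6 and 31.2 CPM. All 4 knock-in females lay below all 5 5xFAD females. The share of all genes separated in this way was not counted, and 22.1% of all genes had an unadjusted p under 0.05 in that comparison. In males the groups overlapped, with the knock-in males the more spread. Means ran from 20.5 ± 2.72 CPM in 5xFAD males through 21.2 ± 2.54 CPM in knock-in females and 22.9 ± 5.44 CPM in knock-in males to 27.3 ± 1.80 CPM in 5xFAD females, and no neighbours in that order differed by more than the larger of their SDs. The log2 change of Abca7 was -0.36 in females (SE 0.14, interval -0.66 to -0.06, adjusted p = 0.135, edgeR). It was 0.16 in males (SE 0.14, adjusted p = 0.868, edgeR), and the difference between the sexes was -0.52 (SE 0.20, adjusted p = 0.173, edgeR). The level of Abca7 followed the noncoding RNA panel with r = 0.62 over 19 libraries (Spearman 0.66) and r = 0.63 with group means removed. In females the panel level did not overlap between the genotypes, so a fit that includes the panel cannot tell panel and genotype apart there. With that panel as a covariate the estimate in females was 0.08 (adjusted p = 1, edgeR), on the other side of 0.

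ABCG1, which passes cholesterol to particles that already carry lipid, had the smallest spread of the 9 genes, with a coefficient of variation of 12.9% over 19 libraries. Abcg1 stood at 66.6, 66.9, 68.3, 76.7 and 77.2 CPM in 5xFAD females and at 75.5, 77.2, 90.7 and 100.1 CPM in knock-in females. In males it ran from 64.5 to 88.5 CPM without the knock-in (median 77.6) and from 61.3 to 79.4 CPM with it (median 72.4). The female groups overlapped, with 2 of 4 knock-in females above the rest. The male groups overlapped too. There 5xFAD males 8 and 9 (80.4 and 88.5 CPM) lay above every knock-in male, and knock-in male 10 (61.3 CPM) lay below every 5xFAD male. Means ran from 71.1 ± 5.36 CPM in 5xFAD females, 71.3 ± 7.71 CPM in knock-in males and 76.2 ± 9.34 CPM in 5xFAD males to 85.9 ± 11.7 CPM in knock-in females, and no neighbours in that order differed by more than their larger SD. Log2 changes of Abcg1 were 0.27 in females (SE 0.11, adjusted p = 0.143, edgeR) and -0.10 in males (SE 0.10, adjusted p = 0.907, edgeR). The difference between the sexes was 0.37 (SE 0.15, interval 0.05 to 0.68, adjusted p = 0.205, edgeR).

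ABCA1 loads lipid onto apolipoprotein E, and its levels overlapped in all 4 groups. Abca1 ran from 32.2 to 59.8 CPM in 5xFAD females (44.6 ± 10.8), from 42.6 to 57.0 CPM in knock-in females (50.8 ± 6.73), from 34.1 to 58.4 CPM in 5xFAD males (43.7 ± 9.43) and from 36.5 to 66.9 CPM in knock-in males (51.9 ± 11.7). No pair of groups differed by more than the larger of their SDs. Its log2 change was 0.18 (SE 0.19, adjusted p = 0.603, edgeR) in females, 0.25 (SE 0.18, adjusted p = 0.83, edgeR) in males and 0.22 (SE 0.12, adjusted p = 0.504, edgeR) over both. The interval over both sexes was -0.04 to 0.48.

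LRP1, a large endocytic receptor for apolipoprotein E and amyloid beta on neurons, astrocytes and vessel cells, had the lowest p of the 9 genes in females and for the difference between the sexes. Lrp1 stood at 411, 440, 444, 445 and 507 CPM in 5xFAD females and at 290, 334, 354 and 403 CPM in knock-in females. In 5xFAD males it stood at 344, 350, 359, 387 and 392 CPM, and in knock-in males at 330, 402, 470, 483 and 542 CPM. All 4 knock-in females lay below all 5 5xFAD females, while 4 of 5 knock-in males lay above all 5 5xFAD males and knock-in male 7 lay below them. Here too the share of all genes separated in this way was not counted. Means in order were 346 ± 46.9 CPM in knock-in females (SD, n = 4), 366 ± 21.8 CPM in 5xFAD males, 446 ± 81.5 CPM in knock-in males and 449 ± 35.2 CPM in 5xFAD females (SD, n = 5 each). The lower pair did not differ beyond their SD, nor did the upper pair, and the step between the pairs was within the SD of the knock-in males. The log2 change of Lrp1 was -0.38 in females (SE 0.12, interval -0.63 to -0.13, adjusted p = 0.0664, edgeR), a level 23.1% lower. In males it was 0.28 (SE 0.11, adjusted p = 0.717, edgeR), a level 21.6% higher. The female minus male change was -0.66 (SE 0.17, interval -1.01 to -0.32, adjusted p = 0.0674, edgeR), rank 174 of 18204 genes by p. Over both sexes the estimate was -0.03 (SE 0.11, adjusted p = 0.953, edgeR).

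The call for Lrp1 depended on the setting. Without knock-in male 7 the difference between the sexes was -0.75 (adjusted p = 0.0181, edgeR) and the change in females -0.38 (adjusted p = 0.0323, edgeR), beside 2.69% and 6.62% of all genes called. With DESeq2 these were -0.64 (adjusted p = 0.0135) and -0.37 (adjusted p = 0.0389), and with library size alone as the scaling -0.80 (adjusted p = 0.032, edgeR) and -0.48 (adjusted p = 0.0332, edgeR), beside 2.21% and 7.03% of all genes. That last scaling also moved the median of all genes, by -0.15 for the difference and -0.09 in females. Across all 28 alternatives the difference stayed below 0, from -0.80 to -0.43, and its adjusted p ran from 0.0135 to 0.992. The level of Lrp1 followed the noncoding RNA panel with r = 0.63 (Spearman 0.62, n = 19), and r = 0.37 with group means removed. It ran against the vascular and blood markers, with r = -0.73 for the 6 endothelial markers, -0.52 for the 6 mural cell markers and -0.60 for the 5 erythrocyte markers. With group means removed these were -0.79, -0.74 and -0.65. The mural sum was 162 to 204 CPM in 5xFAD females and 180 to 263 CPM in knock-in females, and the part of these markers in the level of Lrp1 was not tested. With the noncoding panel as a covariate the difference was -0.43 (adjusted p = 0.992, edgeR) and the change in females -0.18 (adjusted p = 1, edgeR). The knock-in females held 4 of the 6 lowest levels of the noncoding panel, and 5xFAD male 10 and knock-in male 7 held the other 2. Since the panel level did not overlap between the female genotypes, the fit with the panel cannot tell panel and genotype apart in females. Without 5xFAD male 10 the difference was -0.66 (adjusted p = 0.0824, edgeR).

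**Figure D3:**
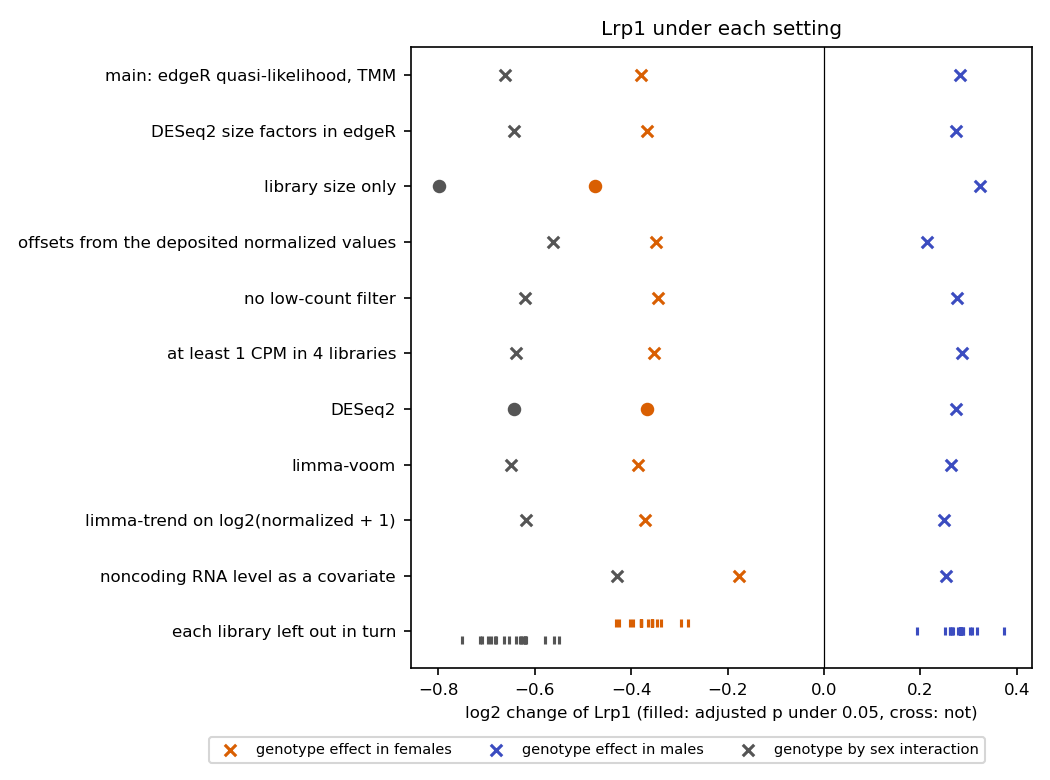
Log2 change of Lrp1 with the knock-in in females, in males and their difference under each way of processing the counts, with the refits that leave out 1 library as ticks in the last line. The difference lies between -0.80 and -0.43 throughout, and filled points mark an adjusted p under 0.05.

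The plot of Lrp1 by setting shows directions that held while the calls came and went. On the authors' normalized scale the groups of Lrp1 overlapped more. There Lrp1 stood at 6639, 7138, 9235, 9431 and 9493 in 5xFAD females and at 4490, 5955, 7773 and 8142 in knock-in females, in normalized counts. In males it stood at 4557, 7428, 7832, 9720 and 9722 without the knock-in and at 7530, 7650, 9348, 10032 and 10964 with it. Knock-in females 4 and 5 now lay inside the 5xFAD female range. The SD of the gene's own scaling over libraries, the log2 ratio of the normalized value to the count, was 0.44 for Lrp1, which put it at the 98.7th percentile of 10765 genes above 100 counts. The median of those genes was 0.14, and the other 8 genes lay between 0.08 and 0.20. With that scaling as an offset the difference between the sexes was -0.56 (adjusted p = 0.356, edgeR), and the change in females -0.35 (adjusted p = 0.347, edgeR).

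LRP8, also called apolipoprotein E receptor 2, and VLDLR are the receptors that pass the reelin signal into neurons. Lrp8 stood at 74.6, 75.4, 80.1, 83.9 and 90.5 CPM in 5xFAD females and at 52.6, 53.8, 81.5 and 84.8 CPM in knock-in females. Knock-in females 4 and 5 lay below all 5xFAD females, while knock-in females 1 and 2 lay inside their range. In males it ran from 58.2 to 82.2 CPM without the knock-in and from 48.8 to 84.4 CPM with it. Means of 65.7 ± 14.2 CPM in knock-in males, 68.2 ± 17.4 CPM in knock-in females, 72.3 ± 10.6 CPM in 5xFAD males and 80.9 ± 6.56 CPM in 5xFAD females differed from their neighbours by less than their SD. Its log2 change over both sexes was -0.19 (SE 0.11, adjusted p = 0.511, edgeR), with -0.25 in females and -0.14 in males. A noncoding gene on the opposite strand, Lrp8os2, had 0 to 20 counts per library. Vldlr ran from 61.4 to 112.7 CPM over all libraries, with group means of 76.6 ± 11.9 CPM in knock-in males, 83.8 ± 17.8 CPM in 5xFAD males, 85.1 ± 8.30 CPM in 5xFAD females and 85.7 ± 12.5 CPM in knock-in females, none apart by more than the larger SD. Its log2 change was 0.01 (SE 0.14, adjusted p = 0.978, edgeR) in females and -0.13 (SE 0.13, adjusted p = 0.902, edgeR) in males, and the interval over both sexes was -0.27 to 0.14. Erythrocyte, mural cell and endothelial markers moved against Lrp8. The 5 erythrocyte markers summed to 100.2 to 159 CPM in 5xFAD females and 192 to 355 CPM in knock-in females. There 3 of 5 were called higher, beside 5.56% of all genes called. The r of their mean log2 CPM with Lrp8 was -0.79 over 19 libraries (-0.84 with group means removed). For the mural cell markers r was -0.77 (-0.70) and for the endothelial markers -0.74 (-0.69). Their part in the level of Lrp8 was not tested.

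Between the sexes within a genotype, 0 of 9 genes passed (edgeR), beside 0.0385% of all genes in 5xFAD and 0.0494% in knock-in animals. Unadjusted p values were under 0.05 for 2 of 9 in 5xFAD (Abca7 and Lrp1), beside 11.1% of all genes. In knock-in animals this held for 3 of 9 (Lrp1, Abcg1 and Clu), beside 14.4% of all genes. DESeq2, limma-voom and limma-trend called 0 of 9 in both genotypes. Settings that keep all libraries called 6 to 47 of all genes in 5xFAD and 7 to 510 in knock-in animals. In 5xFAD animals all 5 females lay above all 5 males for Lrp1, with a log2 difference, female minus male, of 0.29 (SE 0.11, adjusted p = 0.373, edgeR). How many of all genes separate the sexes in this way was not counted. Abca7 was 0.41 higher in 5xFAD females on the log2 scale (SE 0.14, adjusted p = 0.35, edgeR), with 4 of 5 females above every male. In knock-in animals the female minus male difference was -0.37 for Lrp1 (SE 0.12, adjusted p = 0.153, edgeR), 0.32 for Clu (SE 0.14, adjusted p = 0.289, edgeR) and 0.27 for Abcg1 (SE 0.11, adjusted p = 0.252, edgeR). Without knock-in male 7 the Lrp1 difference in knock-in animals was -0.46 (adjusted p = 0.0414, edgeR), beside 1.87% of all genes called. These comparisons share their groups with the genotype comparisons above and are not separate evidence.

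Some pairs of the 9 genes varied together across the 19 libraries. The values in this paragraph are correlations of log2 CPM and a description only, since both genes of a pair are read from the same libraries and share their depth and cell makeup. Clu varied with Abcg1 (Pearson r = 0.79, Spearman 0.75) and with Apod (0.77, Spearman 0.72). With group means removed these were 0.72 and 0.81, and without the 2 libraries farthest from the median of Clu they were 0.84 and 0.68. Vldlr varied with Lrp8 (r = 0.74, Spearman 0.78) and with Abca1 (r = 0.67, Spearman 0.66), which became 0.77 and 0.84 with group means removed. Lrp1 varied with Abca7 (r = 0.69, Spearman 0.69, and 0.61 with group means removed), and with Lrp8 (r = 0.60, Spearman 0.52, and 0.78 with group means removed). It varied against Apod (r = -0.65, Spearman -0.64) and Clu (r = -0.61, Spearman -0.51), and Lrp8 also varied against Apod (r = -0.64, Spearman -0.56). Among the other 8 genes Apoe had its strongest r with Vldlr, at -0.50 (Spearman -0.32, and -0.56 with group means removed).

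**Figure D4:**
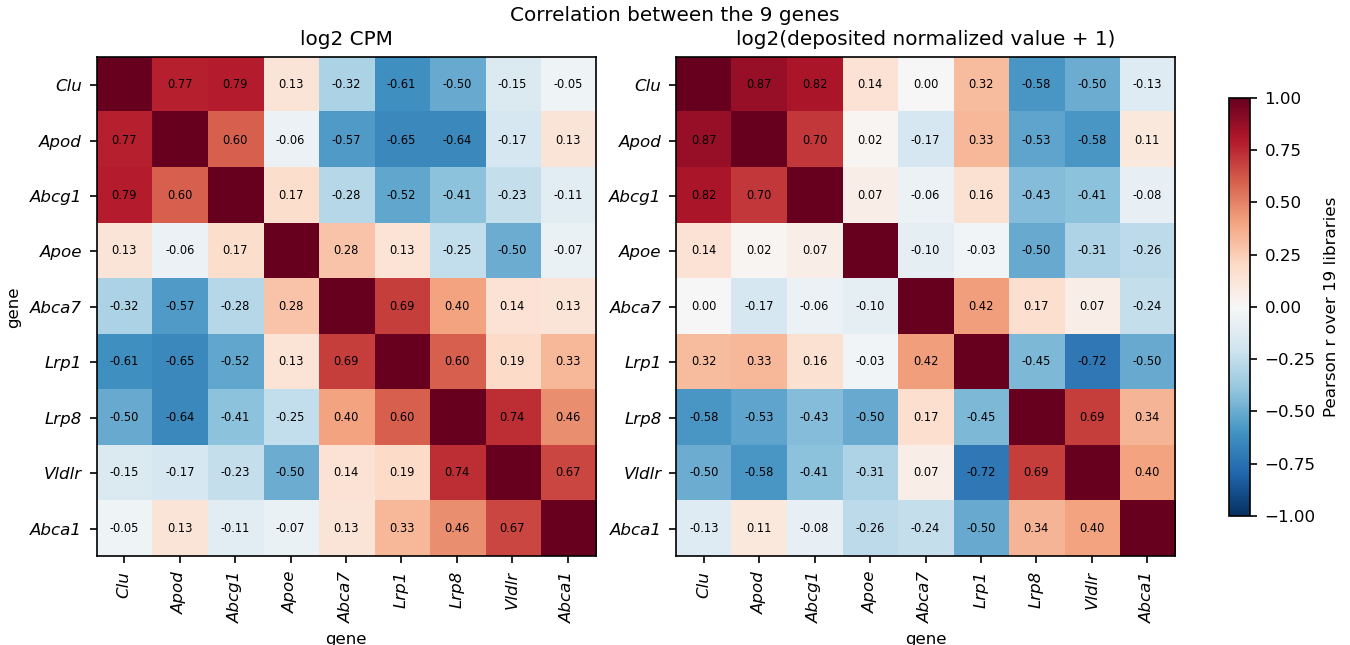
Pearson correlation between each pair of the 9 genes over 19 libraries, on log2 CPM (left) and on the log2 of the authors' normalized values plus 1 (right), red for positive and blue for negative r. The Clu, Apod and Abcg1 block is present on both scales, while the row of Lrp1 changes sign for 7 of its 8 partners and keeps it for Abca7.

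The heatmaps of both scales show where the scaling matters. The pairs of Clu with Apod and Abcg1 were 0.87 and 0.82 on the authors' normalized scale, and Lrp8 with Vldlr was 0.69. For Lrp1 the sign turned with 7 of the other 8 genes. It went from negative to positive with Clu (-0.61 to 0.32), Apod (-0.65 to 0.33) and Abcg1 (-0.52 to 0.16). It went from positive to negative with Lrp8 (0.60 to -0.45), Vldlr (0.19 to -0.72), Abca1 (0.33 to -0.50) and Apoe (0.13 to -0.030). Lrp1 with Abca7 stayed positive, at 0.42.

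**Figure D5:**
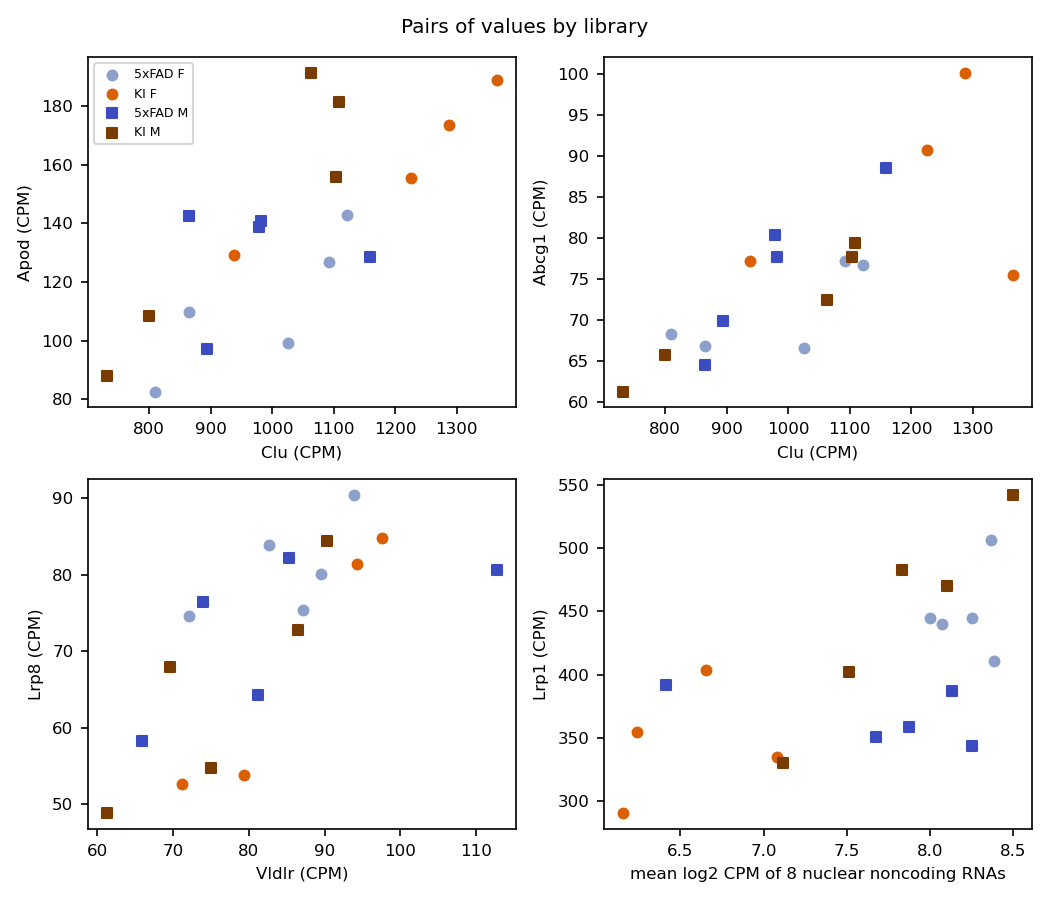
Levels of pairs of genes by library, in CPM, with points marked by genotype and sex: Clu with Apod, Clu with Abcg1, Vldlr with Lrp8, and Lrp1 against the mean log2 CPM of 8 nuclear noncoding RNAs. In the last panel the 4 knock-in females sit at the low end of the noncoding axis together with 5xFAD male 10, which has a higher Lrp1 level than 3 of them.

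The scatter of pairs shows the order of Clu and Apod in single libraries, and whether their relation differed between groups was not tested. In knock-in males the lowest Clu values, 732 and 799 CPM, belonged to the animals with the lowest Apod values, 87.8 and 108 CPM. In 5xFAD males the order differed, since male 6 had the lowest Clu (865 CPM) with the highest Apod (143 CPM), and male 9 the highest Clu (1160 CPM) with the second lowest Apod (129 CPM). The low Lrp8 values of knock-in females 5 and 4, 52.6 and 53.8 CPM, came with the lowest Vldlr values of that group, 71.2 and 79.4 CPM. In 5xFAD male 10 the noncoding panel was at 6.41 on the log2 scale and Lrp1 at 392 CPM, the highest of the 5xFAD males.

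Other genes of the route were taken from 8 lists of carriers, exporters, receptors, reelin signalling, receptor adaptors, lipid-remodelling enzymes and sterol regulators. Of 95 listed genes 82 were tested, and 73 of these were not among the 9. In females 1 of the 73 was called higher and 1 lower (2.74%, beside 5.56% of all genes), and in the other 5 comparisons none was called. The call upwards was Pltp, phospholipid transfer protein, which moves lipid between particles. Pltp stood at 65.1 to 113 CPM in 5xFAD females and at 121 to 168 CPM in knock-in females, without overlap, for a log2 change of 0.55 (SE 0.15, adjusted p = 0.0373, edgeR). Markers of tissue next to the hippocampus were above 0 in both sexes. In females this held for all 8 choroid plexus markers (median log2 change 1.03). Their sum was 626 to 5304 CPM in 5xFAD females and 3515 to 11521 CPM in knock-in females, where female 4 was the highest. All 8 leptomeningeal fibroblast markers were above 0 as well (median 0.50), with 276 to 617 CPM and 615 to 913 CPM. No marker of either list was called or at 0 in any library, and their part in the level of Pltp was not tested. In males Pltp was 79.8 ± 7.26 CPM without and 85.5 ± 16.7 CPM with the knock-in (log2 change 0.10, SE 0.15). All 8 choroid plexus markers (median 0.83) and all 8 leptomeningeal markers (median 0.54) were above 0 in males as well. The call downwards was Reln, the reelin ligand of Lrp8 and Vldlr, made in adult hippocampus by interneurons. Reln stood at 56.5 to 81.6 CPM in 5xFAD females and at 44.1 to 53.6 CPM in knock-in females, without overlap. Its log2 change was -0.48 (SE 0.13, adjusted p = 0.0382, edgeR). For Pltp and Reln alike, the share of all genes without overlap between the female groups was not counted. In males the log2 change of Reln was 0.21 (SE 0.12, adjusted p = 0.807, edgeR), and the difference between the sexes was -0.68 (SE 0.18, adjusted p = 0.0723, edgeR). The Reln call was lost in 15 of 29 alternatives and the Pltp call in 8 of 29, including the noncoding RNA covariate for both. The log2 change stayed on its side of 0 in each of the 29, between -0.57 and -0.36 for Reln and between 0.30 and 0.68 for Pltp, and the share of all genes called in females also varied between these settings.

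Over both sexes the lists gave values but no call, and 49.6% of all genes were above 0. The counts that follow include those of the 9 genes that a list holds. Among the carriers 6 of 8 tested genes were above 0, with a median log2 change of 0.10, and without Clu, Apoe and Apod 3 of 5 were above 0. Among 13 exporters the median was -0.01, and Abca9 was the farthest by p (0.39, adjusted p = 0.252, edgeR). Among 15 receptors of the LDL receptor family the median was -0.0017, with Lrp5 (Wnt co-receptor) at the lowest p. Trem2, a microglial receptor that binds apolipoproteins, was at 0.46 (adjusted p = 0.174, edgeR), with 50.9 ± 11.1 CPM in 10 5xFAD animals and 68.8 ± 11.6 CPM in 9 knock-in animals. Among receptor adaptors and turnover genes, Mylip, the ligase that sends lipoprotein receptors to degradation, was at 0.26 (adjusted p = 0.26, edgeR). All 9 sterol regulators were above 0 with a median of 0.08, led by Srebf1, a regulator of fatty acid synthesis, at 0.30 (adjusted p = 0.256, edgeR). Markers of most cell types were above 0 in the same comparison, with none called. This held for 10 of 10 microglial markers (median log2 change 0.39), which summed to 604 to 988 CPM in 5xFAD and 796 to 1327 CPM in knock-in animals, with none at 0. It also held for 11 of 11 astrocyte (0.21), 8 of 8 oligodendrocyte (0.19), 8 of 8 leptomeningeal (0.55), 8 of 8 choroid plexus (0.93), 5 of 5 ependymal (0.19), 6 of 6 mural cell (0.29) and 5 of 5 erythrocyte markers (0.64). Of the endothelial markers 5 of 6 were above 0 (0.18), and of the neuronal markers 3 of 9 (-0.055). Their part in these values was not tested.

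For each of the 9 genes, the protein-coding genes with the most similar profile over the 19 libraries were found by Pearson r of log2 CPM among 10508 genes. Clu was most like Fam234a (r = 0.88), then Rnh1 and Rpn2. Apoe was most like Acadvl (r = 0.95), Ndufv3 and C1qa, and Apod most like Atp1b3 (r = 0.96), Lamp1 and Pros1. The exporter Abca1 was most like Epb41l2 (r = 0.88), Dock5 and Megf10, Abca7 most like Obsl1 (r = 0.90), Pnpla6 and Tmem214, and Abcg1 most like Eef2 (r = 0.81), Zdhhc3 and Psat1. Among the receptors, Lrp1 was most like Ubr4 (r = 0.93), Cabin1 and Mapkbp1, Lrp8 most like Zfp236 (r = 0.94), Ago2 and Mpdz, and Vldlr most like Zfp729a (r = 0.89), Clock and Brwd3. None of the 9 genes was among the closest 3 of another. These likenesses were chosen as the highest of many and hold for these libraries only.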

How the data were processed

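RNA from 19 hippocampi was sequenced as paired 150 base reads, with a minimum RNA integrity number of 7 per the labels' protocols. The authors deposited a table of estimated counts per gene, in whole numbers. A further deposited table holds a normalized signal, counts rescaled by factors that vary by gene and library. FastQC, Salmon, DESeq2, Seurat and build mm39 are named in the submitters' processing notes, without versions. Strandedness, instrument per library and batch are not given in the sources used here. A deposited variance-stabilized table was not used here.

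Symbols and transcript lengths came from GENCODE M21 on GRCm38 (20023 of 20655 IDs, 96.9%). Tests on the counts used R 4.3.3 and edgeR 4.0.16 (normalization by TMM, filterByExpr with a minimum of 10 counts in its default, robust quasi-likelihood F-test) and adjusted over 18204 genes with a threshold of 0.05. Genotype over both sexes was fitted with sex as a covariate, and the other comparisons came from a model with a mean per group. CPM used TMM factors, correlations used a prior count of 2, and genes of similar profile needed a mean of at least 3 log2 CPM. limma 3.58.1, DESeq2 1.42.0, other scalings and filters, a noncoding RNA covariate and leaving out each library were alternatives. The code was checked on simulated counts. All 36 pairs of libraries within groups differed beyond sampling noise (chi-square per gene at least 9.86). Labels name separate animals, but not litters or dates. The 2 genotypes' animal numbers, title series and library names fall in separate ranges. Within each genotype the library names run from females to males. Genotype, and sex within a genotype, cannot be told apart from anything tied to that order.

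The text names the 9 genes, called genes of each list or otherwise those of lowest p over both sexes, and the 3 most similar genes of each. The genes and lists were chosen with earlier results of these data known.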

Additional observations from a re-analysis of the deposited data

Results flagged for a closer look

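Of 36 groups of values (9 genes in 4 groups of 4 or 5 libraries), 1 held a library far from the others. Abca7 in 5xFAD male 9 stood at 25.3 CPM, while the other 4 5xFAD males lay between 18.8 and 20.3 CPM. The gap to the nearest of them was 0.773 of the whole range, above Dixon's critical value of 0.71 for 5 samples. Chance flags about 1 in 20 such groups.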

How the results depend on the processing

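The tests were repeated under 10 settings that keep all libraries and 19 that leave out 1 each. The count of called genes among the 9 changed from 0 to 1 for Lrp1, lower, in females and for the difference between the sexes, under library size only (1 in each), DESeq2 (1 in each) and without knock-in male 7 (1 in each), and without that animal also for the sex difference in knock-in animals (1). Leaving out single libraries thus gave 0 to 1 in these 3 comparisons. For Lrp1 the lowest and highest values without 1 library were -0.43 and -0.28 in females and -0.75 and -0.55 for the difference. The count over all genes in females, 1013, ran from 0 to 1334 without 1 library and from 0 to 1810 otherwise, and that of the difference between the sexes, 56, from 0 to 489 and from 0 to 766. Over both sexes 4 genes became 0 to 127, and 9 in the knock-in sex comparison became 7 to 510, with the highest counts from DESeq2 or from leaving out 1 library. In males the count was 0 to 19.

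Replicate numbers are shared between the genotypes in the titles. Over 9 pairs of equal number the correlation of deviations was -0.20 to 0.12, 2 pairs were above 0.1, and 1 of 9 libraries correlated best with its own number, so the numbers were not taken to pair animals. With the replicate block, 1 of the 9 genes was called in females, Apod, higher (0.63, adjusted p = 0.0261, edgeR), beside 3.65% of all genes. The block gave 664 called genes in females and 0 over both sexes.

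All turns of direction among the 9 genes and Reln concerned values without a call. With library size only these were Vldlr in females (-0.090), Clu in males (0.0088), the Vldlr difference between the sexes (-0.0026) and the Lrp8 sex effect in knock-in animals (-0.0079). With offsets from the normalized values and with limma-trend on these values they were Vldlr in females (-0.075 and -0.089), the Abca1 (0.078 and 0.090) and Lrp8 (0.070 and 0.065) differences between the sexes, the sex effects in 5xFAD of Clu (-0.11 and -0.12), Abca1 (-0.14 and -0.15) and Lrp8 (-0.12 and -0.11), and the Lrp8 sex effect in knock-in animals (-0.054 and -0.045). Without a filter the Abca1 sex effect in knock-in animals was 0.0020. With the noncoding RNA covariate they were Abca7 (0.092), Lrp1 (0.12) and Reln (5.3e-05) over both sexes, Apoe (-0.072) and Abca7 (0.079) in females, the Abca1 (0.23) and Lrp8 (0.062) differences between the sexes, Abca1 (-0.053) and Vldlr (-0.025) between sexes in 5xFAD, and Apoe (-0.12), Abca1 (0.18) and Abca7 (0.24) between sexes in knock-in animals. Without 1 library, Lrp1 (-0.079 to 0.043) and Vldlr (-0.10 to 0.0045) over both sexes crossed 0, as did Vldlr in females (-0.071 to 0.087), Clu in males (-0.078 to 0.055), the Abca1 (-0.19 to 0.065) and Lrp8 (-0.25 to 0.028) differences, the sex effects in 5xFAD of Clu (-0.043 to 0.094), Abca1 (-0.077 to 0.16) and Vldlr (-0.048 to 0.15), and those in knock-in animals of Abca1 (-0.14 to 0.10), Abca7 (-0.20 to 0.059) and Lrp8 (-0.067 to 0.20). The cause was not tested. The lowest count of any of the 9 genes in a library was 329, for Abca7.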
